A study of Mus musculus with 10 samples.

Results

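The RNA examined here was total RNA of the cortex of CD1 mouse embryos at embryonic day 12 to 13, taken as input beside immunoprecipitation of 4E-T, a protein that binds the cap-binding factor eIF4E and holds bound mRNAs from translation. The study hybridised 10 Affymetrix Mouse Gene 2.0 ST arrays, of which 4 held input and the other 6 held RNA precipitated with 4E-T antibody or control IgG, which were not used. The 3 arrays labelled input 2, 3 and 4 were described, and input 1, which lies on another scale, served only as a check of ranks. All input samples share strain and tissue, and no treatment, transgene or deletion is given in the labels. Their age is labelled as a range, embryonic day 12 to 13, so the day of each sample is not given. The design text speaks of biological replicates, but nothing says which litters or how many embryos each sample came from. The spread between arrays is therefore the spread between these samples.

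A level is the log2 intensity of a probe set after RMA, the standard normalization for this kind of array. A total of 22180 genes with a probe set of 1 symbol were ranked by their mean level over inputs 2, 3 and 4. A percentile states the percent of these genes at or below a gene. Probes of different genes bind with different strength, so a rank is a position on the array and close ranks have no order. The 3 arrays form 1 group, so no test between groups was made, and the values below are a description.

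At this stage the cortical wall holds radial precursors, which divide along the ventricle and give rise to neurons either directly or through intermediate progenitors that carry Eomes. The first neurons settle above them, among them Tbr1-positive neurons of the early cortical plate and Cajal-Retzius cells that secrete reelin. Vessels, microglia, meninges and blood reach the same tissue from other sources. A total RNA sample mixes all of them, so fewer cells of a type and less RNA per cell cannot be told apart in any level given here.

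The stretch before the start site of 8 genes is shown because promoter sequence was described along the ranking, and these genes show its range among genes of precursors, neurons and blood. They were picked with their sequences in view, and all but Nes lie in the top 10% by level. Sox2, Nes and Vim mark precursors, Eomes marks intermediate progenitors and Tubb3 and Tbr1 mark neurons, while Hba-x and Hbb-y encode embryonic globins of primitive red cells. Each line gives the 100 bases before the first start listed by RefSeq on GRCm38.p6, from 5′ to 3′ on the gene's strand. Capitals mark CG dinucleotides and the letters TATAAA.
Sox2, chr3:34649895-34649994, plus strand: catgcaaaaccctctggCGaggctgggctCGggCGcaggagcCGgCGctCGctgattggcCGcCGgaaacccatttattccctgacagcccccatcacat
Nes, chr3:87970993-87971092, plus strand: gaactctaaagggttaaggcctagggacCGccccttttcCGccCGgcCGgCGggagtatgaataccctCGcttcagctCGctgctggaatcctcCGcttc
Vim, chr2:13574211-13574310, plus strand: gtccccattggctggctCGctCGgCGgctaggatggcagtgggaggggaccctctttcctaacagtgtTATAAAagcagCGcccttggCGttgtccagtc
Tubb3, chr8:123411453-123411552, plus strand: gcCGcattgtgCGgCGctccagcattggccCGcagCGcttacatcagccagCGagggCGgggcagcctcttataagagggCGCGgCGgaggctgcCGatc
Eomes, chr9:118478089-118478188, plus strand: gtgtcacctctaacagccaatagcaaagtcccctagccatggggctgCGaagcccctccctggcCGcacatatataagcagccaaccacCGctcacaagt
Tbr1, chr2:61804353-61804452, plus strand: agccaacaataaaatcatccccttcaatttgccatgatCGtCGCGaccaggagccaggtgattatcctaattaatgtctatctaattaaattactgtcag
Hba-x, chr11:32276500-32276599, plus strand: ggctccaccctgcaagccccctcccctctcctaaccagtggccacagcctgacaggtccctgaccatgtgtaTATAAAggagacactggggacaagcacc
Hbb-y, chr7:103853208-103853307, minus strand: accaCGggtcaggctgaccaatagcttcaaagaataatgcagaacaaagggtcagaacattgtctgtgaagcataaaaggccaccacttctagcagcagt

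These stretches hold 8 CG dinucleotides for Sox2, 8 for Nes, 5 for Vim, 11 for Tubb3, 3 for Eomes and 3 for Tbr1, against 0 for Hba-x and 1 for Hbb-y. The letters TATAAA occur in the stretches of Hba-x and Vim.

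The labelled tissue was checked against 6 markers, and all of them were above the reference level described below on inputs 2, 3 and 4. The precursor transcription factor Pax6 read 7.70, 7.86 and 7.44 on inputs 2, 3 and 4 (mean 7.67 ± 0.21 SD, n = 3, percentile 84.1). Sox2, a transcription factor that keeps precursors undifferentiated, read 9.82, 9.58 and 9.36 (9.59 ± 0.23, percentile 96.9), and Nes, the intermediate filament nestin, read 7.92, 8.0 and 7.89 (7.94 ± 0.06, percentile 86.7). Pax6, Sox2 and Nes each had their lowest value on input 4. Eomes read 8.91, 9.17 and 9.17 (9.08 ± 0.15, percentile 94.8). Tubb3, the neuronal beta-tubulin, read 10.13, 9.96 and 10.52 (10.21 ± 0.29, percentile 98.4), and Tbr1, a T-box factor of early cortical neurons, read 8.41, 8.87 and 8.82 (8.70 ± 0.25, percentile 92.7). Input 4 was the highest array for Tubb3, and input 2 the lowest for Eomes and Tbr1. On input 1 these genes stood at percentiles 89.7 for Pax6, 96.7 for Sox2, 89.7 for Nes, 94.2 for Eomes, 98.4 for Tubb3 and 92.2 for Tbr1.

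**Figure D1:**
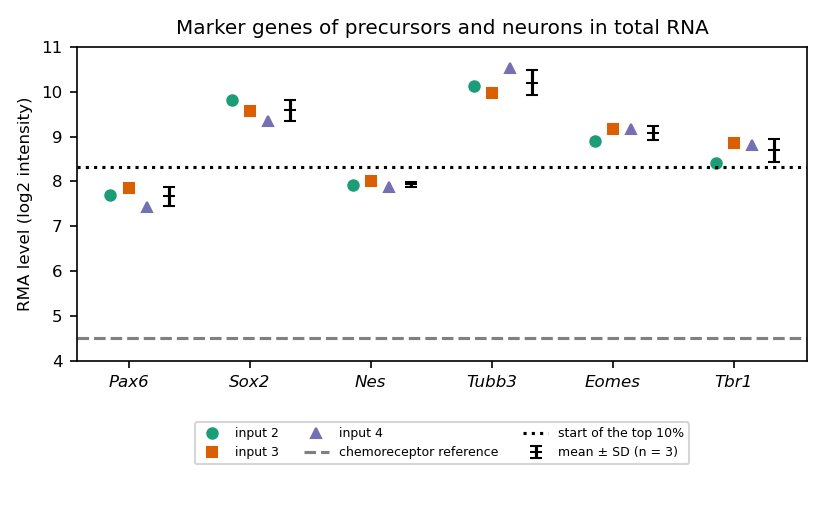
Level of the 6 markers (log2 intensity after RMA) on inputs 2, 3 and 4, with the mean ± SD (n = 3) beside them. The dashed line is the chemoreceptor reference at 4.51 and the dotted line is the start of the top 10% of genes at 8.32, and every point lies above the dashed line.

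The table carries no detection calls, so a reference level was taken from 1428 genes for olfactory, vomeronasal and taste receptors, which embryonic cortex is not known to use. Their median level was 2.42, and their 95th percentile, 4.51, was the reference. A gene counted as above it if its mean passed that level and each array passed its own (4.51, 4.62 and 4.48). This held for 11604 genes, 52.3% of all. At a stricter reference, the 99th percentile of the same receptor genes, it held for 8743 genes, 39.4%, and counts of lists that lie near the reference moved with it. The choice leaves 51 chemoreceptor genes above it, the highest of them Vmn1r233 at 11.56 and the next at 6.57. A gene not above the reference is not shown to be absent, since Ldha (4.91, 4.80 and 4.46), an enzyme of glycolysis, and Rplp2 (4.04, 4.93 and 3.64), a ribosomal protein, were not above it. Over all genes the median level was 4.90, the quartiles were 3.53 and 6.86, and the top 10% by mean (2218 genes) began at 8.32. The SD over the 3 arrays had a median of 0.142 among genes above the reference, and its 95th percentile was 0.392.

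Input 4 stood apart from inputs 2 and 3. Across genes, Pearson's r was 0.992 between inputs 2 and 3 and 0.987 between input 4 and each of them, over the same genes and probe sets. By rank, input 1 was the most distant array. Its Spearman correlation was 0.976, 0.974 and 0.970 with inputs 2, 3 and 4. That of input 4 was 0.985 with input 2 and 0.984 with input 3, and that between inputs 2 and 3 was 0.990. Input 4 exceeded both input 2 and input 3 by at least 0.5 for 829 genes, 3.74% of all, and fell below both for 600, 2.71%. The same counts among these 3 arrays were 206 and 269 for input 2, and 359 and 220 for input 3. Of the 829 genes 454 were above the reference, and of the 600 genes 217. For 639 of the 829 (77.1%) and 417 of the 600 (69.5%), the percentile on input 1 lay nearer to inputs 2 and 3 than to input 4. These genes were picked by their values on input 4, which favours such a majority. The count was not made for genes picked on input 2 or 3, so it does not place input 1. Because input 4 stood apart from inputs 2 and 3, values for the genes the results turn on are given by array, and other genes as mean ± SD. Without input 4, the number of genes above the reference rose by 3 for the meningeal list, by 2 for the midbrain, hindbrain and spinal cord list and by 2 for the sensory ganglion list, and moved by at most 1 for the other lists. Leaving out any array eases the condition on each array. Over all genes the count was 11767 without input 2, 11921 without input 3 and 11823 without input 4. Without input 3 it was 14 for microglial genes (11 with all arrays), 9 for pericyte genes (7) and 6 for astrocyte and oligodendrocyte genes (4).

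The highest positions belonged to the machinery of protein synthesis and energy. Of the 20 named genes with the highest means, 11 encode cytosolic ribosomal proteins, among them Rplp1 (12.64, 12.90 and 12.81), Rpl41 (12.71, 12.62 and 12.68) and Rps12 (12.44, 12.49 and 12.42). Another 3 lie in the mitochondrial genome, namely ND4, CYTB and ND1, subunits of respiratory complexes I and III. The rest were Mif, a cytokine with tautomerase activity, Atp5e, a subunit of ATP synthase, Tpt1, a translationally controlled protein, Hspa8, a constitutive heat-shock chaperone, Naca, which binds nascent chains, and Gapdh of glycolysis. The means of these 20 ran from 12.14 to 12.78 and their SDs from 0.01 to 0.14. One small noncoding RNA with a mean in this range was left out by the naming rule.

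Of the 78 cytosolic ribosomal protein genes listed, 58 were measured, and 57 of them were above the reference, beside 52.3% of all genes. The top 10% held 39 of them, and the list median was 11.19 (11.28, 11.03 and 11.20 by array). The lowest were Rpl39 at 4.58 ± 0.09 and Rplp2 at 4.20 ± 0.66. Ribosomal protein genes have near-identical pseudogenes that can share probes, so their single values are uncertain. Among genes of the mitochondrial genome, 10 of 10 measured were in the top 10%, as were 27 of 42 Nduf subunits of complex I, 12 of 18 ATP synthase genes, 36 of 71 mitochondrial ribosomal proteins, 31 of 49 proteasome genes and 32 of 38 genes of the Srsf, Hnrnp and Snrp families that act in RNA splicing. Zinc finger genes named Zfp were mostly above the reference (301 of 370), while 26 were in the top 10% (7.03%).

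The housekeeping list had 29 measured genes, of which 28 were above the reference, beside 52.3% of all genes, and 23 in the top 10% (median 10.21). Tuba1b, an alpha-tubulin, read 12.13, 11.88 and 12.09. At the low end, Gusb, a lysosomal glucuronidase, read 5.88, 5.91 and 5.40. By gene type, 57.0% of 18961 protein-coding genes were above the reference, against 22.4% of 1926 long noncoding RNAs, 17.6% of 478 microRNA genes and 70.0% of 80 snoRNAs.

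**Figure D2:**
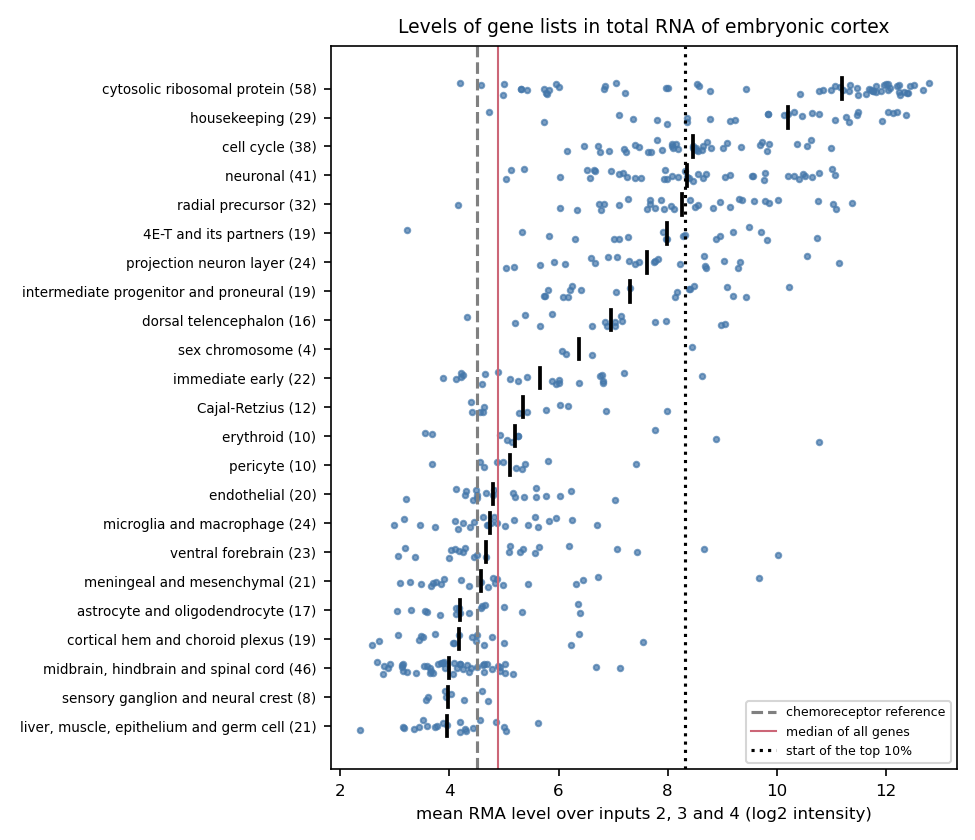
Mean level over inputs 2, 3 and 4 (log2 intensity after RMA) of each measured gene of the 23 lists, with the number measured in brackets. Points are genes, black bars are list medians, the dashed line is the chemoreceptor reference, the solid line is the median of all genes at 4.90 and the dotted line is the start of the top 10%, and list medians run from 3.96 to 11.19.

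Radial precursor genes lay high as a list. All 32 were measured, 31 were above the reference, beside 52.3% of all genes, and 16 in the top 10%. Their median was 8.26 (8.32, 8.53 and 8.13 by array). Fabp7, the lipid-binding protein of radial glia, read 11.40, 11.28 and 11.45. Ccnd2, the cyclin D2 of precursor divisions, read 11.18, 11.17 and 10.89. Msi2, an RNA-binding protein of precursors, read 11.07, 11.09 and 10.94, and the intermediate filament Vim read 10.77, 10.63 and 10.85. The Notch pathway was represented by the receptor Notch1 (7.07, 7.23 and 7.03) and its targets Hes1 (7.88, 7.84 and 7.90) and Hes5 (7.66, 7.68 and 7.52), named after their values were seen. Slc1a3, the glutamate transporter GLAST of radial glia, had one of the 2 lowest means, 6.02 ± 0.12. Lin28b, an RNA-binding protein that blocks let-7 processing, read 4.49, 4.12 and 3.88 and was the only gene of the list not above the reference.

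Cell cycle genes were above the reference in 38 of 38 measured, beside 52.3% of all genes. The top 10% held 20 of them, and the list median was 8.46 (8.61, 8.42 and 8.12 by array). Cdk4, the kinase partner of D cyclins, read 11.09, 10.98 and 10.92, and Pcna, the sliding clamp of DNA replication, read 10.68, 10.65 and 10.53. Ube2c, which conjugates ubiquitin to mitotic targets, read 10.68, 10.53 and 10.48. Ccna2, cyclin A2, read 10.65, 10.48 and 9.99. For each of these 4 genes input 4 was the lowest array. The lowest means were those of E2f1, a transcription factor of S phase entry (6.60, 6.71 and 6.10), and Cdc6, which licenses replication origins (6.16 ± 0.37).

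Of the intermediate progenitor and proneural list, 19 of 19 genes were above the reference, beside 52.3% of all genes, and 7 in the top 10%. The list median was 7.30, and 7.37, 7.37 and 7.16 by array, which are the values of the gene Nhlh2. Over the list, the median difference of input 4 from the mean of inputs 2 and 3 was -0.03. Nhlh1, a helix-loop-helix factor of newborn neurons, read 10.22, 10.32 and 10.12. Neurog2, the proneural factor of cortical precursors, read 9.38, 9.50 and 9.41, and Btg2, an antiproliferative gene of neurogenic divisions, read 9.10, 9.28 and 9.20. The lowest means were those of Igsf8 (5.75 ± 0.10), an immunoglobulin superfamily gene, and of Insm1 (5.73 ± 0.18), a zinc finger factor of basal progenitors. On input 1 Nhlh1 stood at percentile 96.3 and Neurog2 at 93.3.

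Neuronal genes were above the reference in 41 of 41 measured, beside 52.3% of all genes. The top 10% held 22 of them, and the list median was 8.36 (8.18, 8.32 and 8.70 by array). Neurod6, a helix-loop-helix factor of cortical excitatory neurons, read 10.95, 10.95 and 11.28. Mllt11 read 10.72, 11.01 and 11.32. The microtubule proteins Map1b and Stmn2 read 10.75, 10.82 and 10.74, and 10.32, 10.73 and 10.88. Neurod6, Mllt11 and Stmn2 were highest on input 4, whereas Map1b varied by less than 0.1. At the low end were Celsr3, a cadherin of axon guidance (4.83, 4.98 and 5.59), and Nefm, the medium neurofilament (5.03 ± 0.23).

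Genes that later mark cortical layers were above the reference in 24 of 24 measured, beside 52.3% of all genes. The top 10% held 8 of them, and the list median was 7.62 (7.55, 7.60 and 7.87 by array). Nfib and Nfia, nuclear factor I proteins, read 11.04, 10.94 and 11.44, and 10.44, 10.41 and 10.82. The upper-layer factor Pou3f3 read 9.39, 9.41 and 9.19, and the homeobox gene Cux1 read 9.38, 9.27 and 9.23. Fezf2 (9.05, 8.81 and 9.26) and Bcl11b (8.55, 8.61 and 8.87), factors of deep-layer projection neurons named after their values were seen, were also in the top 10%. Cux2, an upper-layer homeobox gene, read 5.18 ± 0.07, and Crym, which binds thyroid hormone, read 4.56, 4.87 and 5.68. Celsr3 and Crym were both highest on input 4.

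Of 12 Cajal-Retzius genes, 7 were above the reference (58.3%, near the 52.3% of all genes) and 0 in the top 10% (median 5.34, and 5.53, 5.49 and 4.99 by array). At the stricter reference 4 of 12 were above, beside 39.4% of all genes. The chemokine receptor Cxcr4 read 8.05, 8.05 and 7.87, the zinc finger factor Zic1 read 7.12, 6.76 and 6.75, and Reln, which encodes reelin, read 6.18 ± 0.33. Reln was highest on input 4, while Ebf2, a factor of Cajal-Retzius cells, read 6.54, 6.49 and 5.03 and was lowest there. The lowest means were those of Ndnf (4.42 ± 0.06) and Calb2 (4.40 ± 0.40), which encode a secreted factor and a calcium-binding protein.

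Factors of the dorsal telencephalon were above the reference in 15 of 16 measured genes, beside 52.3% of all genes. Their median was 6.96, and 7.09, 6.95 and 6.72 by array. The 2 in the top 10% were Emx2 (9.21, 8.99 and 8.95) and Etv5 (9.08, 9.01 and 8.86). Emx2 patterns cortical areas, and Etv5 is an ETS factor downstream of FGF signals. The LIM homeobox gene Lhx2 read 8.02, 7.88 and 7.98, and Otx1, a homeobox gene of deep-layer precursors, read 7.95, 7.78 and 7.59. At the low end, Sp8, a zinc finger factor of anterior cortex, read 5.20 ± 0.14, and Wnt8b, a Wnt ligand of the medial edge, read 4.93, 4.09 and 3.96 and was the only one not above the reference.

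Genes of the cortical hem and choroid plexus were above the reference in 5 of 19 (median 4.18), below the 52.3% of all genes. The stricter reference was passed by 3 of 19, beside 39.4% of all genes. The 5 were the Wnt agonists Rspo3 (7.18, 6.86 and 8.58), Rspo1 (6.42, 6.32 and 6.37) and Rspo2, the ligand Bmp7 (6.09, 6.38 and 6.23) and Ttr, the transthyretin of choroid epithelium (5.18, 5.20 and 4.64). Rspo3 was highest on input 4 by over 1, and Ttr was lowest there. The lowest means were those of Clic6 (2.71 ± 0.18), a chloride channel protein, and Htr2c (2.59 ± 0.38), a serotonin receptor of mature choroid plexus.

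Ventral forebrain genes were above the reference in 12 of 23 (52.2%), next to 52.3% of all genes, with a median of 4.66 (4.79, 4.79 and 4.56 by array). At the stricter reference 5 of 23 were above, beside 39.4% of all genes. Meis2, a homeobox gene that the embryonic cortex itself also uses, read 10.02 ± 0.04. The neuropeptides Sst (8.06, 8.78 and 9.14) and Npy (6.87, 7.55 and 7.88), carried by interneurons that migrate into the cortex, were lowest on input 2 and highest on input 4. Dlx5, a homeobox gene of ventral precursors and interneurons, read 6.75, 7.62 and 6.86 and was highest on input 3. The factors of ventral precursors Nkx2-1 (4.00 ± 0.12) and Lhx8 (3.06 ± 0.29) were not above the reference, nor was Gbx1 (3.18 ± 0.03).

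Of 46 genes for the midbrain, hindbrain and spinal cord, 12 were above the reference (26.1%) and 0 in the top 10% (median 3.99). The stricter reference was passed by 2 of 46. Over all genes these references were passed by 52.3% and 39.4%. Tcf7l2, a Wnt effector that is high in the thalamus, read 7.30, 7.04 and 7.06, and Barhl2, a homeobox gene of the diencephalon, read 6.98, 7.16 and 5.91. Gbx2 (5.17 ± 0.16) and Foxa2 (5.01 ± 0.13), which mark the anterior hindbrain and the floor plate, followed. The Hox genes, which pattern the hindbrain and trunk, were above it in 3 of 36 measured over the whole array, and Hoxb2 (2.79 ± 0.34) and Hoxc5 (2.68 ± 0.14) were the lowest 2 of the list. En1, En2 and Pax2, which mark the midbrain and its border with the hindbrain, were not above it.

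Outside the neural lineage, 2 of 3 measured embryonic globins stood in the top 10% of the ranking, Hbb-y and Hba-x. Of the 10 erythroid genes measured among 20 listed, 8 were above the reference (80%, beside 52.3% of all genes) and 2 in the top 10%. Their median was 5.20, and 5.30, 5.35 and 5.08 by array. The stricter reference was passed by 3 of 10, the globins, beside 39.4% of all genes. Hbb-y read 10.80, 11.12 and 10.42, and Hba-x read 9.09, 8.86 and 8.72. Hbb-bh1, the other early beta-like chain, was outside the top 10% and read 8.35, 8.75 and 6.21, so that input 4 differed by -2.34 from the mean of the other arrays. Beta-like globins are close copies of one another and their probe sets may share signal. The adult globins Hba-a1 and Hbb-b1 had no probe set of 1 symbol. Other erythroid genes were near the median of all genes, such as the anion exchanger Slc4a1 (5.25 ± 0.13), while the regulator Gata1 (3.56 ± 0.18) and Rhag (3.68 ± 0.18), a membrane protein of red cells, were not above the reference.

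Endothelial genes had a median of 4.80 and were above the reference in 11 of 20 (55%, near the 52.3% of all genes). At the stricter reference 4 of 20 were above, a smaller share than the 39.4% of all genes. Among the 11 were Mfsd2a, a lipid transporter of brain vessels (6.99, 6.84 and 7.26), Cdh5, the cadherin of endothelial junctions (6.68, 6.04 and 5.97), Ramp2, a receptor partner of adrenomedullin (6.02 ± 0.08), and Egfl7, a secreted vessel factor (5.77 ± 0.16). The receptors Kdr, Flt1 and Tek were not above it. Pericyte genes were above the reference in 7 of 10 (70%) and above the stricter one in 2, beside 52.3% and 39.4% of all genes. Their median was 5.11. Rgs5, a regulator of G protein signals, led the list (7.13, 7.07 and 8.04) and was highest on input 4. The Notch receptor Notch3 (5.80 ± 0.07), the channel subunit Abcc9 (5.39 ± 0.06) and the growth factor receptor Pdgfrb (5.32 ± 0.25) were also above the reference.

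Microglia and macrophage genes had a median of 4.74 and were above the reference in 11 of 24 (45.8%, near the 52.3% of all genes). At the stricter reference 4 of 24 were above, a smaller share than the 39.4% of all genes. The adaptor Tyrobp read 6.68, 6.32 and 7.12, the fractalkine receptor Cx3cr1 read 6.30, 6.19 and 6.22, Cd68, a lysosomal protein, read 5.94, 5.77 and 6.16, and C1qb, a complement chain, read 5.97, 5.76 and 5.75. Csf1r, Ptprc and Itgam, a growth factor receptor and surface proteins of these cells, were not above it. Meningeal and mesenchymal genes were above the reference in 9 of 21 (42.9%) and above the stricter one in 4, beside 52.3% and 39.4% of all genes. Their median was 4.58, and 4.84, 4.79 and 4.23 by array. Crabp2, which binds retinoic acid, was the only one in the top 10% and read 10.18, 10.26 and 8.56, and the homeobox gene Prrx1 read 7.25, 6.84 and 6.09. Both were lowest on input 4. Without input 4 the count above the reference was 12 of 21.

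Genes of later or distant cell types lay low. Astrocyte and oligodendrocyte genes were above the reference in 4 of 17 (23.5%) and above the stricter one in 2, beside 52.3% and 39.4% of all genes. Their median was 4.19. The 4 were Hopx, Ugt8a, Cldn11 and Mbp, and the defining genes Gfap (4.36 ± 0.10) and Aqp4 (3.56 ± 0.29) were not. The list of liver, muscle, epithelium and germ cells had 3 of 21 above the reference and 0 above the stricter one (median 3.96). The 3 were Acta1, a muscle actin (5.61 ± 0.22), Apoa1, an apolipoprotein (5.04 ± 0.16), and Myod1, a muscle regulator (5.03, 5.13 and 4.83). Alb, the serum albumin of liver, read 3.78, 3.73 and 3.81, and Ddx4, a helicase of germ cells, read 2.35 ± 0.05. The sensory ganglion and neural crest list had 0 of 8, and its highest mean was that of Foxd3, a factor of neural crest, at 4.71 ± 0.34. Xist, the transcript of the inactive X chromosome, read 8.61, 8.53 and 8.21, and the Y-linked genes Eif2s3y (6.65, 6.38 and 6.82), Uty (6.13, 5.99 and 6.28) and Kdm5d (6.06, 6.02 and 6.09) were above the reference on the same arrays.

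**Figure D3:**
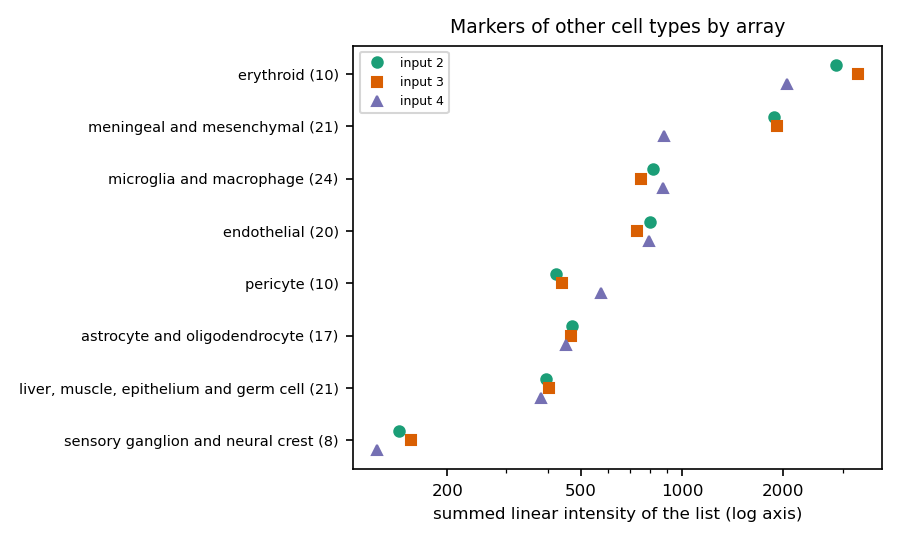
Summed linear intensity of the lists for other cell types (2 to the power of each level, added over the list, log axis) on inputs 2, 3 and 4, with the number of genes in brackets. Sums of different lists hold different genes and are comparable only between arrays. Input 4 lies lowest for the erythroid, meningeal, astrocyte and oligodendrocyte, liver, muscle, epithelium and germ cell, and sensory ganglion lists.

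The summed linear intensity of the erythroid list was 2863 on input 2, 3331 on input 3 and 2048 on input 4. Without the 3 globins it was 208, 214 and 181. For the meningeal and mesenchymal list it was 1875, 1914 and 885, and without Crabp2 it was 715, 688 and 507. Input 4 was the lowest array in all 4 of these sums. It was also lowest for the sensory ganglion list (144, 156 and 124), in which 0 of 8 genes were above the reference. By a smaller margin it was lowest for astrocyte and oligodendrocyte genes (470, 467 and 451) and for liver, muscle, epithelium and germ cell genes (393, 400 and 380). In these lists 4 of 17 and 3 of 21 genes were above the reference. By gene, input 4 was the lowest array for 5 and the highest for 6 of the 17. Of the 21 it was the lowest for 10 and the highest for 5. The sums for endothelial genes were 803, 736 and 797, for pericyte genes 420, 439 and 574, and for microglia and macrophage genes 819, 753 and 879. Pericyte and microglial sums were highest on input 4. Without Rgs5 the pericyte sums were 281, 305 and 310, and without Tyrobp the microglial sums were 717, 674 and 740.

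Input 4 differed from inputs 2 and 3 by whole lists. Input 4 was the highest array for 33 of 41 neuronal genes, against 37.2% of all genes, and their median difference from the mean of inputs 2 and 3 was 0.36 (0.15 between inputs 3 and 2). It was the lowest array for 34 of 38 cell cycle genes, against 35.9% of all genes, with a median difference of -0.36 (-0.12 between inputs 3 and 2). For the meningeal list it was lowest for 16 of 21 (median -0.34), for radial precursor genes lowest for 20 of 32 (median -0.16) and for dorsal telencephalic genes lowest for 12 of 16 (median -0.18). The median difference was 0.31 for layer genes, 0.29 for microglial genes, -0.28 for erythroid genes and -0.32 for the sensory ganglion list. Of the 24 microglial genes, input 4 was the highest array for 14 and the lowest for 5. It exceeded both others by at least 0.5 for 0 of them and fell below both by that much for 3. Of these 24 genes, 13 were not above the reference. Over all genes the median difference was 0.00. The median percentile of the neuronal list was 88.9, 90.0 and 92.6 on inputs 2, 3 and 4 and 87.7 on input 1. For cell cycle genes it was 92.0, 90.7 and 88.3 on inputs 2, 3 and 4 and 93.9 on input 1, and for meningeal genes 49.3, 48.0 and 39.3 on inputs 2, 3 and 4 and 34.9 on input 1. By list median, input 1 thus lay on the far side of inputs 2 and 3 from input 4 for the neuronal and cell cycle lists. This did not hold for each gene. Tubb3, Dcx and Gap43 stood at a higher percentile on input 1 than on inputs 2 and 3, and E2f1 at a lower one. Such genes were not counted. On the meningeal list the median of input 1 lay below inputs 2 and 3, like input 4. There 12 of 21 genes were not above the reference. Of the 4 highest meningeal genes, Crabp2, Prrx1 and Fbln1 stood higher on input 1 than on inputs 2 and 3, and Igf2 lower. Crabp2 stood at percentile 98.6 on input 1, and at 98.3, 98.4 and 91.6 on inputs 2, 3 and 4. The part of the meningeal, erythroid and microglial levels in the neuronal and cell cycle differences was not tested.

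**Figure D4:**
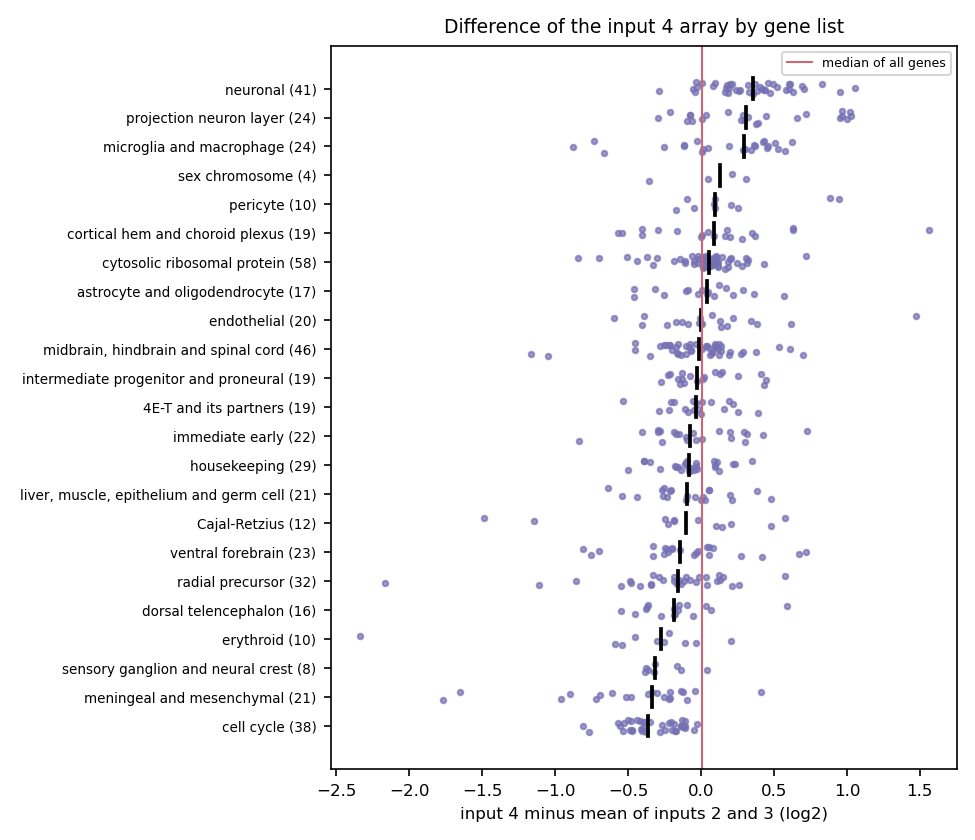
Difference between input 4 and the mean of inputs 2 and 3 (log2) for each measured gene of the 23 lists, with the number measured in brackets. Points are genes and black bars list medians, which run from -0.36 for cell cycle genes to 0.36 for neuronal genes, around the median of all genes at 0.00.

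Input 4 exceeded both other arrays by at least 0.5 for 8 of 41 neuronal genes and 8 of 24 layer genes, beside 3.74% of all genes. The genes in this paragraph were named after their values were seen, except those also chosen by rank. Cntn2, an adhesion molecule of axons, read 7.40 ± 0.61 and lay 1.06 higher on input 4 than the mean of inputs 2 and 3. Snap25, a protein of synaptic vesicle fusion, read 7.76, 8.05 and 8.73, and Gap43, a growth cone protein, read 9.46, 9.66 and 10.19. Among layer genes, Ldb2, a cofactor of LIM proteins, read 6.85, 7.26 and 8.08, Mef2c, a MADS-box factor, read 6.90, 7.02 and 7.98, and Sox5, a factor of early-born neurons, read 6.59, 6.57 and 7.53. In each of them the gap of input 4 to both others was larger than the gap between inputs 2 and 3. They were picked among genes with input 4 at least 0.5 above both others, which favours such gaps.

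In the other direction, input 4 lay below both by at least 0.5 for 3 of 32 radial precursor genes and 3 of 38 cell cycle genes, beside 2.71% of all genes. Hmga2, a chromatin protein of early precursors, read 8.74, 8.93 and 6.67. Ccnd1, cyclin D1, read 9.27, 9.38 and 8.21, and Fzd8, a Wnt receptor, read 8.22, 8.47 and 7.49. Gmnn, which blocks relicensing of replicated DNA, read 8.77, 8.87 and 8.01, and Mcm4, a helicase subunit, read 8.05, 7.74 and 7.13. The meningeal list had 7 of 21, with the collagen-binding proteoglycan Lum at 4.84, 5.04 and 3.17.

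The 10 genes with the largest range above the reference were Chl1, Cwc22, Hbb-bh1, Cnih3, Hs3st4, Ahcy, Hmga2, Kctd12, Tiam2 and Grik3. Chl1, a neural adhesion molecule, read 4.60, 4.99 and 7.60, a range of 3.00. Cnih3, an auxiliary subunit of AMPA receptors, read 5.75, 5.13 and 7.59, and Grik3, a kainate receptor subunit, read 5.10, 5.52 and 7.04. Hs3st4, which sulfates heparan (5.15, 4.78 and 7.12), Kctd12, a partner of GABA-B receptors (5.93, 6.17 and 8.0), and Tiam2, an activator of Rac (6.43, 5.90 and 7.86), were likewise highest on input 4. Input 4 was the lowest array for Hbb-bh1, Hmga2, the splicing factor Cwc22 (8.50, 7.12 and 5.92) and the hydrolase Ahcy (8.35, 7.56 and 6.06). For the last pair inputs 2 and 3 also differed from each other.

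Of 19 measured genes for 4E-T and proteins it works with, 18 were above the reference, beside 52.3% of all genes. The top 10% held 7 of them, and the list median was 7.99. Eif4enif1, which encodes 4E-T, read 8.02, 7.86 and 7.85 (percentile 86.5), and Eif4e, the cap-binding factor, read 9.76, 9.52 and 9.83 (percentile 97.2). Eif4ebp2, which restrains eIF4E, read 10.74, 10.78 and 10.71, and the P-body proteins Lsm14a and Ddx6 read 9.82 ± 0.11 and 9.49 ± 0.11. Edc4, a decapping scaffold, was low at 5.33 ± 0.09, and Cpeb1, which binds polyadenylation elements, was not above the reference at 3.21 ± 0.02.

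Promoter sequence ran along the ranking. For 16918 genes with a promoter in the RefSeq table, the CpG ratio (CG dinucleotides observed over those expected from base composition) was computed in the 250 bases before the first listed start. Its median was 0.127 in the lowest 10% of the ranking, 0.434 in the fifth step of 10%, 0.722 in the seventh and 0.814 in the highest, and each step exceeded the one below it. Median GC content was 38.8% in the lowest 10% and 61.6% in the highest, and between 60.4% and 61.6% from the seventh step on. The letters TATAAA, on either strand and 40 to 19 bases before the start, occurred in 3.07% of all promoters, 6.11% of the lowest 10% and 1.24% of the highest. The lowest share, 0.606%, was in the ninth step. Probe sets share base composition with their genes, and its part in the levels was not tested. The 1428 chemoreceptor genes had a median percentile of 8.24, within the lowest 10% of the ranking. Their part in the values of that step was not tested.

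**Figure D5:**
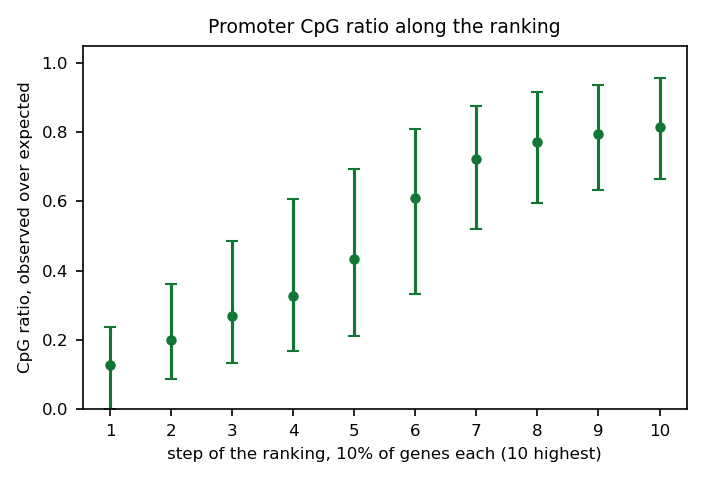
CpG ratio (observed over expected CG dinucleotides in 250 bases before the start) by step of 10% of the ranking of genes by level, where step 10 is the highest. Points are medians and bars run from the first to the third quartile, and the medians rise from 0.127 to 0.814.

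By list, the median ratio was 0.873 for housekeeping genes, 0.850 for ribosomal protein genes and 0.803 for cell cycle genes, against 0.544 for all genes. Radial precursor genes had 0.652 (23 genes with a promoter) and neuronal genes 0.666 (27 genes). Some lists with lower levels had ratios as high or higher, at 0.990 for Cajal-Retzius (8 genes) and 0.690 for sensory ganglion (6 genes). So had midbrain, hindbrain and spinal cord (0.677, 32 genes) and ventral forebrain genes (0.673, 18 genes). The median ratio was low for the lists of erythroid (0.156), endothelial (0.223) and microglial (0.227) genes. Low-level lists with low ratios were also those of liver, muscle, epithelium and germ cell (0.267), astrocyte and oligodendrocyte (0.352) and meningeal genes (0.493). Among the 23 precursor genes with a promoter, Vim alone held TATAAA in the window, and its ratio was 0.376. The globins printed above had ratios of 0.051 for Hba-x and 0.091 for Hbb-y although Hbb-y stood at percentile 99.1, so single genes as well as whole lists depart from the run of the medians along the ranking.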

How the data were processed

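Cortices of CD1 embryos were collected fresh, RNA was extracted with phenol and chloroform, checked on a BioAnalyzer, amplified with a NuGEN Pico kit and labelled with biotin, per the labels' protocols. The deposited values are log2 intensities that the authors made with RMA, and the submitters' processing notes name Affymetrix Expression Console as the program. RMA corrects background, equalises the distributions of arrays normalized together and summarises probes, so a level is relative to the other genes of an array. The program's version and the build are not given in the sources used here. Over all probe sets the median was 3.54 on input 1 and 4.42, 4.43 and 4.39 on inputs 2, 3 and 4, so input 1 entered as percentiles only.

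Of 41345 probe sets, the platform annotation gave 23521 a single symbol and 1814 several symbols, and 16010 had no entry. Entries in the RefSeq gene table (GRCm38.p6) were found for 23328 of the former. Where a gene had several probe sets (1082 genes), the brightest by mean over inputs 2, 3 and 4 represented it. These probe sets differed by a median of 1.19, and for 604 genes by over 1. The 23 lists hold 594 genes, of which 532 were measured, and 28 of the 62 others lie only on probe sets of several symbols.

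Means, SDs, ranks and counts were computed with Python 3.11.15, pandas 2.3.3 and numpy 2.4.6, and figures with matplotlib 3.10.9. The code was tested on simulated data. No test between groups was made, since the 3 arrays form 1 group, and their number limits the precision. Arrays far from the others were searched for with the critical value of Dixon's test over the 4 inputs. Members and lists, which come from general knowledge, were chosen with earlier results of these data known. Genes were named by rule: the 6 markers, the 20 highest means without small or predicted RNAs, the 4 highest and 2 lowest members of each list, the 10 largest ranges above the reference, Eif4enif1 and Eif4e. Other genes named, such as a cell type's defining markers, were picked with their values in view. The comparison of input 4 with the other arrays, its difference of 0.5 and the promoter description were chosen after seeing the data. Alternatives covered the reference percentile, the condition on each array, the probe set kept, the mean, the ranked genes, the top share and leaving out each array.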

Additional observations from a re-analysis of the deposited data

Results flagged for a closer look

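Percentiles on the 4 input arrays were searched for single arrays far from the others, for 23 lists, 8 marker and 4E-T genes and 156 other named genes. A gap above the 95% critical value of Dixon's test, as a share of the whole range, was found for 21 of 187. Chance gives about 1 in 20 for groups picked without regard to their values, which does not hold for genes named by rank or by range, such as Chl1, Hmga2 and Kctd12, so the counts are not set against each other.

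Input 4 lay apart for Chl1 at percentile 83.2 (45.6 to 51.0 on the other arrays), Kctd12 at 87.1 (63.5 to 66.4), Rgs5 at 87.7 (76.6 to 78.3) and Nfia at 99.1 (98.6 to 98.7), where it was the highest. It was the lowest for Hmga2 at 71.9 (91.7 to 93.9), Crabp2 at 91.6 (98.3 to 98.6), Tek at 29.4 (39.8 to 41.5), Ccnd2 at 99.2 (99.5 on the nearest) and the median of the intermediate progenitor and proneural list at 78.2 (81.0 to 81.2). That median is the value of a single gene, Nhlh2, on each array. Of the 19 genes of the list, input 4 was the lowest array for 8 and the highest for 6. Their median difference from the mean of inputs 2 and 3 was -0.03.

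Input 1 lay apart for Rspo1 at 80.6 (68.1 to 69.6) and Ddx4 at 19.5 (7.04 to 8.48), where it was the highest. It was the lowest for Cx3cr1 at 56.2 (66.3 to 68.3), Nhlh1 at 96.3 (98.3 to 98.5), Neurog2 at 93.3 (96.1 to 96.5), Eif4ebp2 at 97.1 (99.1 on each of the others), Cpeb1 at 14.97 (19.4 to 19.6), Rpl21 at 99.93 (99.95 on the others) and the median of the list of liver, muscle, epithelium and germ cells at 29.9 (33.9 to 34.7). Input 2 lay apart for Emx2 at 95.4 (94.2 to 94.3) and for Rplp1 at 99.996, where the gene was the highest of all on the other arrays, a shift of 1 rank at the top of the scale. Input 3 lay apart for Meis2 at 98.1 (97.9 on each of the others).

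Probe sets outside the ranking also carried signal. Of 15820 probe sets without annotation, leaving out 190 array controls, 4741 (30.0%) were above the chemoreceptor reference, and their highest mean was 12.56. Of 1814 probe sets with several symbols, 957 (52.8%) were above it.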

How the results depend on the processing

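With the 99th percentile of the chemoreceptor genes as the reference, 8743 genes (39.4%) were above it, and the counts of genes above it were 4 for Cajal-Retzius, 3 for cortical hem and choroid plexus, 5 for ventral forebrain, 2 for midbrain, hindbrain and spinal cord, 3 for erythroid, 4 for endothelial, 2 for pericyte, 4 for meningeal and mesenchymal, 4 for microglia and macrophage, 2 for astrocyte and oligodendrocyte and 0 for liver, muscle, epithelium and germ cell genes. The other 13 counts stayed within 1.5 times. With the mean alone they were 7 for astrocyte and oligodendrocyte, 5 for liver, muscle, epithelium and germ cell and 2 for sensory ganglion and neural crest genes. Leaving out each array in turn gave 0 to 2 for the sensory ganglion and neural crest list, the 2 without input 4. The top twentieth held 1109 genes. At a difference of 1, chosen after seeing the data, input 4 lay above both others for 111 genes and below both for 53. Ranking protein-coding genes alone moved 18 of 49 values by more than their spread. No paired analysis was possible because 1 group entered. The spread of dim genes over 3 arrays and the lack of detection calls limit what can be said of genes near the reference.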

Other observations

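Immediate early genes, which respond within minutes to stimulation or handling, were above the chemoreceptor reference in 15 of 22 (68.2%, beside 52.3% of all genes; median 5.65). Jund, an AP-1 subunit, was the only one in the top 10% and read 8.67, 8.78 and 8.44 on inputs 2, 3 and 4. Jun read 7.15, 7.37 and 7.07, Dusp1, a phosphatase of MAP kinases, read 6.67, 6.83 and 6.95, and the zinc finger gene Klf6 read 6.70, 7.03 and 6.71. The genes with the lowest means were Fosb (4.27, 4.54 and 3.57) and Fos (3.89, 3.92 and 3.85), and neither was above the reference, nor were Egr1 and Junb.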
